A study of Homo sapiens with 12 samples.

Results

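The mitochondrial ribosomal protein genes were followed across 12 RNA-seq libraries of HEK293T cells, an established human embryonic kidney line that grows rapidly and takes up plasmids readily. The members were all protein-coding genes whose symbol begins with MRPL or MRPS and a number, which gave 78 genes of the 58735 in the tables. Of these, 51 encode proteins of the large subunit of the mitochondrial ribosome, among them MRPS30 and MRPS18A, whose symbols name the small subunit. A further 26 encode proteins of the small subunit, and MRPS36 belongs to neither. The cells of every group were wild type and were transiently transfected, with 3 libraries in each group. The control group received pcDNA3.1, the plasmid without an insert. The other groups received VGLL2-NCOA2 or TEAD1-NCOA2, fusion genes of sarcomas that join a TEAD cofactor or the DNA-binding protein TEAD1 to the activation domains of the coactivator NCOA2, or YAP5SA, a form of the coactivator YAP that lacks its sites for the inhibitory LATS kinases. Expression therefore came from introduced plasmids in 1 cell line, and whether transfected cells were selected, and how long after transfection RNA was taken, is not given in the sources used here.

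Mitochondria keep a small chromosome of their own that encodes core subunits of the respiratory chain and of ATP synthase, and a dedicated ribosome in the matrix translates those messages. The RNA of that ribosome is made inside the organelle, whereas its proteins are all encoded in the nucleus, made in the cytosol and imported. Many of these proteins have a counterpart in the bacterial ribosome, and others were added after the endosymbiont was acquired. Of the members, 46 are shared with bacteria and 31 are specific to mitochondria.

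The introduced genes were read in every group that received them. YAP1 was 3369, 3912 and 5779 FPKM (fragments per kilobase of gene length, scaled for depth, the unit of the deposited tables) in the YAP5SA libraries and 4.28 to 6.39 FPKM in control. NCOA2 was 607 to 621 FPKM in the VGLL2-NCOA2 group, 246 to 279 FPKM in the TEAD1-NCOA2 group and 1.53 to 2.59 FPKM in control. In the YAP5SA group, NCOA2 and VGLL2 were listed at 0 in replicates 1 and 2 but stood at 141 and 54.4 FPKM in replicate 3, which goes against the label of that library. YAP5SA replicate 3 also stood apart in the members themselves. Each member was divided by the mean of the other libraries of its group, and the median ratio of the 77 members tested was 0.657 in that library, with 24 members under 0.5. It was between 0.893 and 1.23 in the other 11 libraries. Control replicate 3 had 6 members under 0.5 and MRPL53 at 3.06 times the mean of the other control libraries. For genes and list medians, values with YAP5SA are also given without replicate 3 where leaving it out moved a value that passed, or a median, by more than 1.5 times or changed a call. Fragment totals could be recovered for all libraries other than those of YAP5SA and lay between 14166961 and 15587479, of which the members took 58277 to 82372 in a library. In YAP5SA only 20.6% to 22.5% of low values were whole fragments, against 100% in every other library, so depth is unknown there. Between 30893 and 31160 genes were above 0 in the YAP5SA libraries, against 20762 to 26247 in the others. Whether the YAP5SA values were computed like the others was not tested. A difference in computing could not be told apart from an effect of YAP5SA. Taken as FPKM times gene length, which follows fragments in all groups but YAP5SA, the share on the mitochondrial chromosome was 9.97% to 12.6% in control. It was 6.18% to 6.56% in the VGLL2-NCOA2 group, 6.25% to 9.83% in the TEAD1-NCOA2 group and 3.6% to 4.64% in the YAP5SA group. The YAP5SA share may not be a share of fragments.

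Markers of the cell line and of other cell types moved with the groups. The 6 markers of the HEK293T line summed to 170 to 209 FPKM in control, 103 to 105 FPKM with VGLL2-NCOA2, 49.3 to 60.7 FPKM with TEAD1-NCOA2 and 29.9 to 36.0 FPKM with YAP5SA. With these transfected genes, 4, 6 and 4 of them fell (25%, 27.9% and 30.2% of all genes tested did), and 1 rose with VGLL2-NCOA2 (log2 difference 0.70). The 5 fibroblast markers summed to 7.15 to 11.1 FPKM in control, 5.54 to 6.96 FPKM with VGLL2-NCOA2, 1.36 to 1.76 FPKM with TEAD1-NCOA2 and 13.9 to 16.1 FPKM with YAP5SA. Among these, COL3A1 rose with YAP5SA from 0.328 to 0.469 FPKM to 11.3 to 12.8 FPKM (3.24), COL1A1 fell by 1.39, and COL1A2 was listed at 0 in all libraries. The 5 skeletal muscle markers summed to 3.11 to 5.02, 3.28 to 3.54, 1.20 to 1.49 and 8.38 to 14.3 FPKM in the same order of groups. ACTA1 and MYH3 rose with YAP5SA (2.10 and 1.75), while MYOG was listed at 0 in every library outside YAP5SA and reached 0.112 FPKM there. The leukocyte markers PTPRC, CD3E, CD68 and TYROBP were at or near 0. The 5 endothelial markers summed to at most 0.379 FPKM. The part of these shares and markers in the results was not tested.

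**Figure D1:**
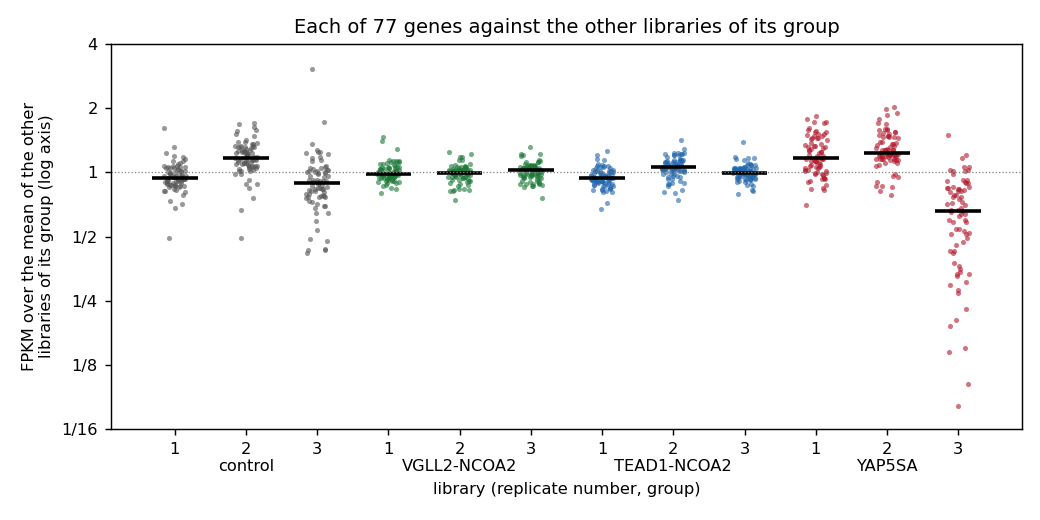
Ratio of each of the 77 members tested to the mean of the other libraries of its group, on a log axis, with 1 column of points for each of the 12 libraries and a bar at the median. YAP5SA replicate 3 has a median ratio of 0.657 and the widest spread, control replicate 3 is at 0.893, and the VGLL2-NCOA2 libraries lie close to 1.

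In control cells the members covered a wide range of levels per kilobase, each value being summed over the exons of its gene. MRPS34 (chr16:1771890-1773155, coordinates of GRCh38 and GENCODE 29), a small subunit protein specific to mitochondria that is needed for a stable small subunit, was the highest at 277 ± 45.9 FPKM (SD, n = 3). MRPL37 (chr1:54184041-54225464), a large subunit protein specific to mitochondria, followed at 204 ± 25.5 FPKM, and these genes together made up 18.0% to 18.7% of the summed FPKM of the members in the control libraries. MRPS26 (114 ± 20.7 FPKM), MRPS18B (68.7 ± 17.4 FPKM) and MRPS2 (68.3 ± 7.85 FPKM) were next, and the levels of MRPS18B and MRPS2 did not differ beyond their spread. In all, 15 members were above 50 FPKM and 14 below 10 FPKM. At the low end, MRPL46 was 0.760 ± 0.325 FPKM and MRPL38 1.92 ± 0.455 FPKM. MRPS24 was the 1 member below the filter of 1 FPKM in 3 libraries, with 0.0284 to 0.228 FPKM over the 12 libraries, and it was not tested. The order of the members held across groups, with Spearman's rho between control and group means of 0.942 (VGLL2-NCOA2), 0.951 (TEAD1-NCOA2) and 0.936 (YAP5SA) over the 78 genes, which were read in the same libraries.

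**Figure D2:**
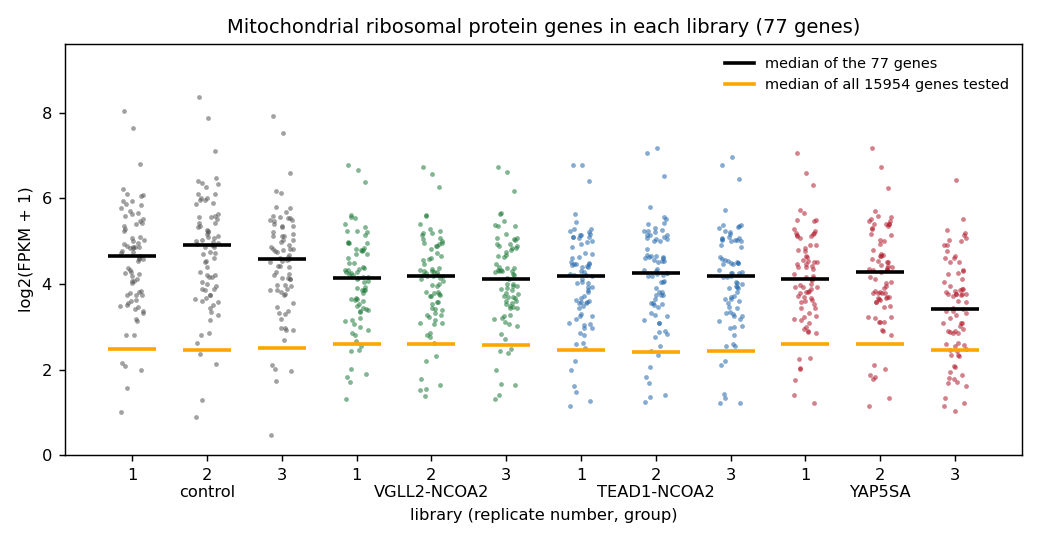
Level of the 77 members tested in each of the 12 libraries as log2(FPKM + 1), with 1 point for each gene, a black bar at their median and an orange bar at the median of all 15954 genes tested. The member medians are 4.59 to 4.90 in control, 4.11 to 4.24 with the fusions, 4.12 and 4.28 in YAP5SA replicates 1 and 2 and 3.42 in YAP5SA replicate 3, whereas the orange bars stay between 2.41 and 2.60.

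Because TEAD factors bind the word CATTCC, and members move together in the comparisons that follow, the promoters were read for short words. RefSeq (GRCh38.p14) gave a window of 250 bases before and 50 bases after the start site for 69 of the 78 members, to be set against 27305 windows of the same length over all genes. The words were searched on both strands, and no word contains another. CATTCC (reverse GGAATG) was in 10 member windows, 14.5%, against 14% of all windows. CCGGAAGT (reverse ACTTCCGG), the word of ETS factors such as GABPA, was in 11, 15.9% against 4.44%. AAGATGG (reverse CCATCTT), the word of YY1, was in 23, 33.3% against 6.06%, and 16 members held it on the strand of the gene within the first 36 bases after the start. A match is a description of the letters only. The windows of all genes were not matched to the members for expression. AAGATGG also holds the letters ATG of a start codon, and whether its matches lie at coding starts was not tested. The 250 bases before the start are shown for genes on which the comparisons turn, in capitals the ETS word of MRPS34 and MRPL20 and the TEAD word of MRPL37 and MRPL22. These are chr16:1773135-1773384 (minus strand), chr1:54199917-54200166 (plus strand), chr5:154940823-154941072 (plus strand) and chr1:1407294-1407543 (minus strand), each written 5′ to 3′ along the gene.
MRPS34: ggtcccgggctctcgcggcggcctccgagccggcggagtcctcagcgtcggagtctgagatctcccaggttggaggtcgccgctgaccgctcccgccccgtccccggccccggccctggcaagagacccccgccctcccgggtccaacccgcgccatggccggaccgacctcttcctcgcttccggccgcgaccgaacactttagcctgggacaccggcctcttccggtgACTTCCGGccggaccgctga
MRPL37: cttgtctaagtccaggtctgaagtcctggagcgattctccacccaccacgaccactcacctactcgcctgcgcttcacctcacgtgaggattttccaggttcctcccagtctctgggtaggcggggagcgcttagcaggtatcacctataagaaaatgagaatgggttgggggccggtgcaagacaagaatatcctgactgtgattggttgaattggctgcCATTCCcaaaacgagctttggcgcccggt
MRPL22: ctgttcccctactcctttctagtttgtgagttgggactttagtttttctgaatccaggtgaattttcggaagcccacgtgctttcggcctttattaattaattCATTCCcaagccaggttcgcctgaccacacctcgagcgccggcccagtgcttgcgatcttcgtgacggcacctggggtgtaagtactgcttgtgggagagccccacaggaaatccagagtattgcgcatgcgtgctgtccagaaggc
MRPL20: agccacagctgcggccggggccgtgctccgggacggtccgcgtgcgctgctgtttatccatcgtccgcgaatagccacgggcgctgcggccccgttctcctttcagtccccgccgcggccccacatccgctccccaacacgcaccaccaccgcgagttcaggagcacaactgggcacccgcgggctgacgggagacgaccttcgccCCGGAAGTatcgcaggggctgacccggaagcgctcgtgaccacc
The stretches of 30 bases around the YY1 word, in capitals, are shown for a member that fell in each comparison with control, one that was lower with YAP5SA, one that rose and one that was lower with VGLL2-NCOA2. They lie at chr6:30617851-30617880 (MRPS18B, plus strand), chr1:1407261-1407290 (MRPL20, minus strand), chr15:88467359-88467388 (MRPL46, minus strand) and chr17:38297169-38297198 (MRPL45, plus strand).
MRPS18B: tgggcgtacgtcAAGATGGcggcgtctgta
MRPL20: tccgacccgggcAAGATGGcagcggcgctg
MRPL46: gagaacgaAAGATGGcggcgcccgtaaggc
MRPL45: ctttgcgggaacAAGATGGcagcccccata
The word began 24, 16, 9 and 14 bases from the start site in these genes. Among the 28 members that fell in all comparisons with control, 25 had a window, of which 4 held the TEAD word, 4 the ETS word and 7 the YY1 word. Among the 19 that fell in none, 18 had a window, of which 1, 4 and 8 held these words. The NRF1 word was in no window of these sets.

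The study asked how the fusions and YAP5SA change transcription, and as a group the mitochondrial ribosomal protein genes were lower in FPKM with each of them. The summed FPKM of the members was 2542, 2994 and 2341 in the control libraries and 1606, 1585 and 1603 with VGLL2-NCOA2. It was 1623, 1810 and 1701 with TEAD1-NCOA2 and 1690, 1794 and 1033 with YAP5SA, so that every library of the transfected genes lay below every control library. The FPKM total of the library was lower alongside, and averaged 397555 in control and 258838, 277070 and 227032 with VGLL2-NCOA2, TEAD1-NCOA2 and YAP5SA. As a share of that total the members were 0.660% ± 0.00679 in control, 0.617% ± 0.00835 in the VGLL2-NCOA2 group, 0.619% ± 0.0228 in the TEAD1-NCOA2 group and 0.654% ± 0.0979 in the YAP5SA group (SD, n = 3). The YAP5SA libraries were 0.710%, 0.711% and 0.541%, with replicates 1 and 2 above all control libraries and replicate 3 below them. On the TPM scale, in which the FPKM of a library are divided by their own sum and brought to a common total, the median gene of all 15954 tested was higher than in control by 0.57, 0.35 and 0.77 (log2) with VGLL2-NCOA2, TEAD1-NCOA2 and YAP5SA. In FPKM that median was 0.01, -0.09 and 0.03. The median member was -0.57, -0.51 and -0.73 in FPKM but 0.02, -0.00 and 0.02 in TPM. Relative to the median gene the members were lower, with -0.58, -0.42 and -0.76 in FPKM and -0.55, -0.36 and -0.75 in TPM. Division by the library sum shifts all genes of a library alike, apart from the pseudocount. The agreement of the scales in this gap is therefore built in and not separate support. In a bulk sample, less RNA per cell and fewer cells that express a gene cannot be told apart.

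**Figure D3:**
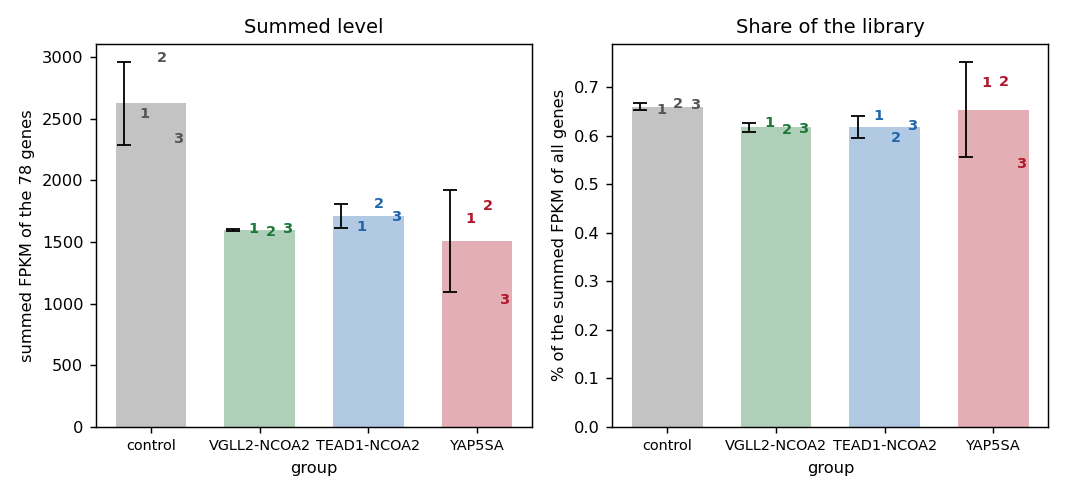
Summed FPKM of the 78 members (first panel) and their share of all FPKM of the library in percent (second panel), with 1 point for each of 3 libraries in each group, digits giving the replicate and marks the mean with its SD. The sums of all 9 transfected-gene libraries (1033 to 1810 FPKM) lie below those of control (2341 to 2994 FPKM), whereas the shares of YAP5SA replicates 1 and 2 lie above control and that of replicate 3 below it.

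**Figure D4:**
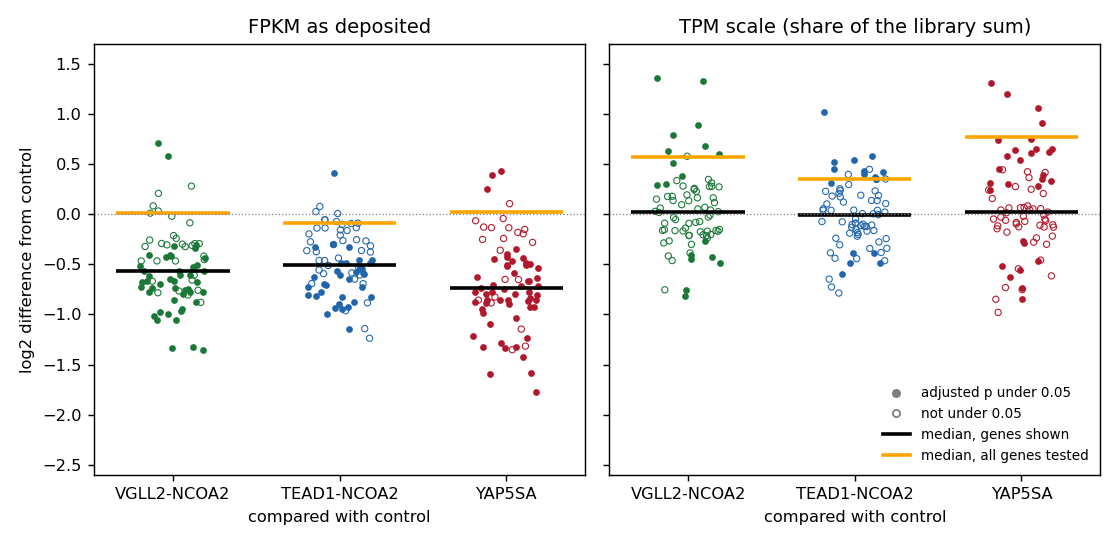
Log2 difference from control of the 77 members tested in each of the 3 comparisons with control, in FPKM and on the TPM scale, with filled points for adjusted p under 0.05, black bars at the median of the members and orange bars at the median of all 15954 genes tested. The members lie around -0.57, -0.51 and -0.73 in FPKM and around 0 in TPM, where the direction is lost. They lie below the median of all genes in both panels, a gap that division by the library sum leaves nearly unchanged by construction.

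The first comparison set VGLL2-NCOA2 against control. With this fusion, 44 of the 77 members tested fell in FPKM (57.1%, against 25% of all genes tested), 2 rose (2.60%, against 28.9%) and 31 did not pass. A member passed when its adjusted p was under 0.05 in limma fitted over all genes and 12 libraries on log2(FPKM + 1). In 59 members all VGLL2-NCOA2 libraries lay below all control libraries (76.6%, against 30.7% of all genes), and 6 members fell by more than 1 on the log2 scale (5.03% of all genes did). On the TPM scale the direction was lost, since 7 members were lower (9.09%, against 6.03% of all genes) and 11 higher (14.3%, against 51.8%).

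MRPS2 (chr9:135499984-135504673), the counterpart of bacterial S2 in the small subunit, was 60.2, 75.9 and 68.9 FPKM in control and 27.3, 27.1 and 24.5 FPKM with VGLL2-NCOA2, with no overlap. It fell by 1.34 ± 0.11 (log2, SE; adjusted p = 1.35e-05) and by 0.75 in TPM (adjusted p = 0.000124). MRPL37, whose promoter is shown above with its TEAD word, was 198, 232 and 181 FPKM in control and 100, 94.4 and 97.0 FPKM with VGLL2-NCOA2. Every VGLL2-NCOA2 library lay below every control library, and the gene fell by 1.05 ± 0.14 in FPKM (adjusted p = 0.000123) and by 0.45 in TPM. MRPS18B, a small subunit protein related to bacterial S18, was 65.3, 87.6 and 53.3 FPKM in control and 34.1, 32.6 and 31.5 FPKM with VGLL2-NCOA2. It fell by 1.02 ± 0.16 (adjusted p = 0.000369), again without overlap. MRPL34, the counterpart of bacterial L34, went from 32.4 ± 1.28 to 15.1 ± 2.41 FPKM (SD, n = 3), a difference of -1.06 ± 0.21 (adjusted p = 0.00158 in limma). MRPL23, which lines the exit of the nascent chain, went from 17.9 ± 4.50 to 6.46 ± 1.06 FPKM (SD, n = 3), a difference of -1.32 ± 0.35 (adjusted p = 0.00832 in limma).

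MRPS34, the most abundant member, was 260, 329 and 243 FPKM in control and 109, 106 and 105 FPKM with VGLL2-NCOA2. The groups were far apart, and the spread of the gene was estimated over all 12 libraries, among them YAP5SA replicate 3 at 26.4 FPKM. It fell by 1.36 ± 0.50 (adjusted p = 0.0398), and the call was lost when any 1 of the 6 libraries of these groups was left out, with differences of -1.45 to -1.23 and adjusted p of 0.0583 to 0.109. The fall of MRPS26, from 114 ± 20.7 to 76.1 ± 6.03 FPKM (SD, n = 3; -0.56 ± 0.20, adjusted p = 0.0343 in limma), was lost without 5 of the 6 libraries in turn (adjusted p up to 0.126).

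MRPS25 and MRPL46 were the members that rose. MRPS25 (chr3:15042460-15065335), a small subunit protein specific to mitochondria, was 16.2, 16.9 and 13.8 FPKM in control and 26.2, 25.3 and 26.8 FPKM with VGLL2-NCOA2. All VGLL2-NCOA2 libraries were above all others of the study, and the gene rose by 0.71 ± 0.13 in FPKM (adjusted p = 0.00115) and by 1.33 in TPM. Its exons share 22.2% of their bases with NR2C2 on the opposite strand. MRPL46 (chr15:88459476-88467419), a large subunit protein specific to mitochondria, was 1.02, 0.869 and 0.394 FPKM in control and 1.5, 1.86 and 1.49 FPKM with VGLL2-NCOA2, a rise of 0.59 ± 0.14 (adjusted p = 0.00556). Of its control libraries only replicate 1 reached 1 FPKM. MRPL46 therefore passed the filter on low values through the groups in which it was higher, which limits each of its rises.

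The second comparison set TEAD1-NCOA2 against control. With this fusion, 33 of 77 members fell in FPKM (42.9%, against 27.9% of all genes tested), 1 rose (1.30%, against 20.6%) and 43 did not pass. All TEAD1-NCOA2 libraries lay below all control libraries in 56 members (72.7%, against 34.8% of all genes), and 1 member fell by more than 1 (6.51% of all genes did). In TPM, 5 were lower (6.49%, against 9.39%) and 11 higher (14.3%, against 38.5%). The count of members that fell was 17 after quantile normalization (18.5% of all genes) and 59 without control replicate 3 and YAP5SA replicate 3 (36% of all genes), a choice made after seeing the data.

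MRPL22 (chr5:154941070-154969411), the counterpart of bacterial L22 in the wall of the exit tunnel, was 10.4, 11.2 and 9.97 FPKM in control and 5.06, 4.38 and 4.85 FPKM with TEAD1-NCOA2. It fell by 1 ± 0.09 in FPKM (adjusted p = 2.23e-05) and by 0.60 in TPM, with no overlap. MRPS5 (chr2:95087207-95149434), the counterpart of bacterial S5, was 18.9, 21.9 and 20.6 FPKM in control and 9.81, 10.4 and 10.1 FPKM with TEAD1-NCOA2. Its fall of 0.95 ± 0.09 (adjusted p = 3.35e-05) held in TPM, at 0.48. MRPS2 read 34, 38.7 and 35.9 FPKM here, below all control libraries and above all those of VGLL2-NCOA2. It fell by 0.89 ± 0.11 (adjusted p = 0.000121) and by 0.39 in TPM, and it was the 1 member that was lower in TPM in all 3 comparisons with control.

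MRPL53, a large subunit protein specific to mitochondria, had the lowest difference among the members that passed, -1.15 (adjusted p = 0.0122). It rested in part on control replicate 3, since the control libraries read 6.03, 6 and 18.4 FPKM against 3.62, 3.17 and 3.57 FPKM with TEAD1-NCOA2, and 45.2% of its exonic bases are shared with CCDC142. MRPL28 and MRPL47, the counterparts of bacterial L28 and L29, fell by 0.93 each (adjusted p = 0.0122 and 0.0061). MRPL37 fell by 0.70 ± 0.14 (adjusted p = 0.00183) with libraries of 109, 144 and 124 FPKM. MRPS34 was 109, 133 and 108 FPKM, below all control libraries, and its difference of -1.24 ± 0.50 did not pass (adjusted p = 0.0619). MRPL46 rose by 0.41 ± 0.14 (adjusted p = 0.0361), and that call was lost without control replicate 3 (0.25, adjusted p = 0.0944) and without each TEAD1-NCOA2 library in turn. It was also lost when no filter on low values was used.

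The third comparison set YAP5SA against control. With YAP5SA, 53 of 77 members fell in FPKM (68.8%, against 30.2% of all genes tested), 3 rose (3.90%, against 32.9%) and 21 did not pass. All YAP5SA libraries lay below all control libraries in 51 members (66.2%, against 30.5% of all genes), and 12 fell by more than 1 (10.0% of all genes did). Without YAP5SA replicate 3, 50 were lower (28.6% of all genes), 2 higher (31.8%) and 6 lower by more than 1 (7.3%), and the median difference of the members went from -0.73 to -0.43. In TPM, 8 members were lower (10.4%, against 8.07%) and 21 higher (27.3%, against 60.5%).

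MRPS2 was 26.1, 29.7 and 23.4 FPKM with YAP5SA and fell by 1.34 ± 0.11 (adjusted p = 4.5e-06), and by 0.56 in TPM. All of its YAP5SA libraries were far below control. MRPL1 (chr4:77862520-77952790), the counterpart of bacterial L1 in the stalk near the tRNA exit, was 17.3, 17.4 and 22.1 FPKM in control and 6.98, 7.63 and 4.86 FPKM with YAP5SA. It fell by 1.42 ± 0.15 (adjusted p = 1.93e-05), by 1.26 without replicate 3 and by 0.73 in TPM. MRPL20, whose ETS and YY1 words are shown above and whose bacterial counterpart binds the RNA of the large subunit early in assembly, was 19.7, 25 and 20.2 FPKM in control and 10.9, 10.9 and 4.09 FPKM with YAP5SA. It fell by 1.33 ± 0.27 (adjusted p = 0.00143) and by 0.92 without replicate 3. MRPL37 fell by 1.09 ± 0.14 (adjusted p = 5.8e-05) and MRPL30, the counterpart of bacterial L30, by 1.22 (adjusted p = 0.000319).

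In other members the size of the fall came from replicate 3. MRPS34 was 133, 142 and 26.4 FPKM with YAP5SA, and its difference of -1.77 ± 0.50 (adjusted p = 0.00967) was -0.99 without that library. MRPL55, the counterpart of bacterial L31, was 23.9, 24.3 and 6.53 FPKM against 48.9, 62.9 and 39.7 FPKM in control, and its difference of -1.59 ± 0.38 (adjusted p = 0.00398) was -1.01 without it. MRPL41, a large subunit protein specific to mitochondria, was 35.7, 34.9 and 5.09 FPKM against 72.7, 83.5 and 33.9 FPKM. Its groups overlap, and the difference of -1.59 ± 0.59 (adjusted p = 0.036) was -0.73 and did not pass without replicate 3 (adjusted p = 0.057). MRPL12, the stalk protein that recruits translation factors and is also known to bind the mitochondrial RNA polymerase, was 44.0, 46.2 and 4.59 FPKM and passed in no comparison with control.

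MRPL19, MRPL38 and MRPL46 rose. MRPL19, the counterpart of bacterial L19, was 9.97, 10.3 and 9.29 FPKM in control and 11.8, 11.6 and 12.4 FPKM with YAP5SA, a small rise of 0.25 ± 0.07 without overlap (adjusted p = 0.00847). MRPL46 rose by 0.44 ± 0.14 (adjusted p = 0.0205), a call that was lost without control replicate 3 and without YAP5SA replicate 1 (adjusted p up to 0.0756). MRPL38 rose by 0.39 (adjusted p = 0.0324), but not when control replicate 1 or 2 or YAP5SA replicate 1 or 3 was left out (adjusted p up to 0.127), and 41.1% of its exonic bases are shared with other genes.

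**Figure D5:**
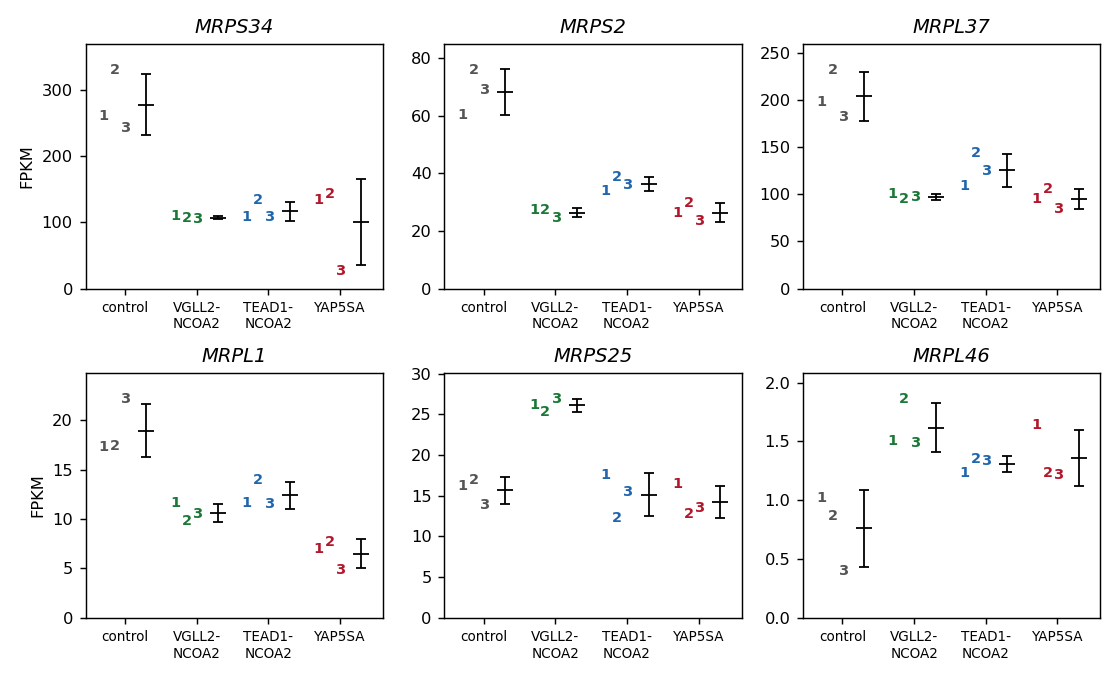
FPKM of MRPS34, MRPS2, MRPL37, MRPL1, MRPS25 and MRPL46 in the 12 libraries, 1 panel for each gene with its own axis from 0, digits placed at the value of each replicate and marks beside them at the mean with its SD over 3 libraries. MRPS2 and MRPL37 are lower in each transfected-gene group, MRPL1 is lowest with YAP5SA, MRPS25 is higher with VGLL2-NCOA2 alone, and YAP5SA replicate 3 is far below its group for MRPS34.

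The comparisons with control share their control libraries, so they are set side by side and not counted as separate evidence. In FPKM, 28 members fell in all of them (36.4%, against 16.1% of all genes), 18 of the large and 10 of the small subunit. The count was also 28 (15.5% of all genes fell) when YAP5SA replicate 3 was left out of the comparison of YAP5SA with control. The fits of the fusions against control kept that library in the shared spread. The 28 members included MRPL1, MRPL22, MRPL37, MRPS2, MRPS5 and MRPS18B, already given, and MRPL58, a peptidyl-tRNA hydrolase built into the large subunit that frees nascent chains from stalled ribosomes. MRPL58 was 49.4, 58.6 and 45.4 FPKM in control, 26.7, 28.8 and 27.5 FPKM in the VGLL2-NCOA2 group, 30.4, 37.3 and 31.6 FPKM in the TEAD1-NCOA2 group and 33.8, 41.4 and 31.2 FPKM in the YAP5SA group. All libraries of the transfected genes lay below control, with differences of -0.86, -0.61 and -0.52 (adjusted p = 0.000306, 0.00286 and 0.00498). In TPM its YAP5SA difference was 0.28, above control. Of the 28, 12 were lower in all of these comparisons after quantile normalization, 18 after a correction for gene length and GC content, and MRPS2 alone on the TPM scale. At the other end, 19 members fell in no comparison, MRPL12, MRPL19, MRPL46, MRPS18A and MRPS25 among them, of which MRPS18A was lower with YAP5SA when replicate 3 was left out (-0.44, adjusted p = 0.0311). MRPS36, now known as a subunit of the 2-oxoglutarate dehydrogenase complex, differed by -0.45 with VGLL2-NCOA2 (adjusted p = 0.0924), -0.83 with TEAD1-NCOA2 (adjusted p = 0.00794) and -0.71 with YAP5SA (adjusted p = 0.0126, and -0.41 without replicate 3).

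The subunits and the origins of the proteins gave similar values. Of 51 large subunit genes tested, 27, 20 and 33 fell with VGLL2-NCOA2, TEAD1-NCOA2 and YAP5SA, and of 25 small subunit genes 17, 12 and 19. Of all genes tested, 25%, 27.9% and 30.2% did. The median differences were -0.66, -0.51 and -0.72 for the large and -0.51, -0.46 and -0.74 for the small subunit, and with YAP5SA -0.38 and -0.47 without replicate 3. Of 45 genes shared with bacteria, 27, 20 and 34 fell, and of 31 specific to mitochondria 17, 12 and 18. On the TPM scale the medians of these classes lay between -0.09 and 0.08, so no direction is given there.

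The transfected genes were then set directly against each other. Between VGLL2-NCOA2 and TEAD1-NCOA2, 7 of 77 members were lower with VGLL2-NCOA2 (9.09%, against 4.61% of all genes) and 3 higher (3.90%, against 15.3%). Between VGLL2-NCOA2 and YAP5SA, 3 were lower with VGLL2-NCOA2 (3.90%, against 15.3%) and 10 higher (13.0%, against 16%), of which MRPL20 and MRPL55 by more than 1 (2.04% of all genes). Neither exceeded 1 without YAP5SA replicate 3 (0.66 and 0.55), and the MRPL55 call was lost without each VGLL2-NCOA2 library in turn (adjusted p up to 0.107). Between TEAD1-NCOA2 and YAP5SA, 2 were lower with TEAD1-NCOA2 (2.60%, against 26.5%) and 12 higher (15.6%, against 14%). Without YAP5SA replicate 3 the last comparisons had 15 lower and 10 higher for VGLL2-NCOA2 (16% and 14.9% of all genes) and 12 lower and 12 higher for TEAD1-NCOA2 (26.3% and 13.3%), and the median differences changed sign, from 0.12 to -0.09 and from 0.14 to -0.07. They changed sign on the TPM scale as well (-0.07 and -0.14). The counts moved with the fit. Fitted alone, the fusions differed in 20 members lower with VGLL2-NCOA2 (11.6% of all genes) and 15 higher (26.8%). Without control replicate 3 and YAP5SA replicate 3 there were 16 and 14 between the fusions (11% and 26.6%), 23 and 13 between VGLL2-NCOA2 and YAP5SA (21.4% and 19.3%) and 21 and 13 between TEAD1-NCOA2 and YAP5SA (33.5% and 16.4%).

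Several members differed between the transfected genes by this test. MRPL1, MRPL20 and MRPL30 were lower with YAP5SA than with VGLL2-NCOA2, by 0.65, 1.07 and 0.70 (adjusted p = 0.00809, 0.012 and 0.0204), and than with TEAD1-NCOA2, by 0.85, 0.95 and 0.85 (adjusted p = 0.00142, 0.0168 and 0.00602). These differences also passed on the TPM scale and without YAP5SA replicate 3, where they were 0.48, 0.66 and 0.42 against VGLL2-NCOA2 and 0.69, 0.54 and 0.58 against TEAD1-NCOA2. Leaving out TEAD1-NCOA2 replicate 2 cost the MRPL20 call (0.92, adjusted p = 0.0527), and each VGLL2-NCOA2 library in turn that of MRPL30 (adjusted p up to 0.0655).

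MRPL45 (chr17:38297023-38323218), which anchors the ribosome to the inner membrane beside the exit tunnel, was 41.6, 44.8 and 44.3 FPKM in control and 25, 24 and 27.6 FPKM with VGLL2-NCOA2. It was 37.7, 44.5 and 40.5 FPKM with TEAD1-NCOA2 and 36.6, 43.2 and 35.6 FPKM with YAP5SA, so that the VGLL2-NCOA2 libraries lay below all others. The difference of VGLL2-NCOA2 was -0.75 ± 0.10 from control (adjusted p = 0.000136), -0.66 from TEAD1-NCOA2 (adjusted p = 0.00166) and -0.57 from YAP5SA (adjusted p = 0.00161). MRPL9, the counterpart of bacterial L9, had the same pattern, with 23.3, 22.7 and 24.2 FPKM in VGLL2-NCOA2 and 32.1 to 41.6 FPKM in the other 9 libraries, and differences of -0.68, -0.48 and -0.61 (adjusted p = 7.43e-05, 0.00276 and 0.000339). The exons of MRPL9 share 38.5% of their bases with other genes, OAZ3 among them. On the TPM scale the differences of MRPL45 and MRPL9 from the other transfected genes passed (-0.58 and -0.78, and -0.40 and -0.83), whereas those from control did not (-0.16 and -0.09). MRPS30, a large subunit protein despite its symbol, was lower with VGLL2-NCOA2 than with TEAD1-NCOA2 (-0.33, adjusted p = 0.0318) and than with YAP5SA (-0.36, adjusted p = 0.0144). The first of these was lost without any 1 library of its groups, and the second without VGLL2-NCOA2 replicate 1 or YAP5SA replicate 2 (adjusted p up to 0.0578).

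MRPS25 was higher with VGLL2-NCOA2 than with TEAD1-NCOA2 by 0.76 (adjusted p = 0.00331) and than with YAP5SA by 0.84 (adjusted p = 0.000944), in TPM by 0.88 and 0.68. MRPL22 was lower with TEAD1-NCOA2 than with YAP5SA (-0.55, adjusted p = 0.00113, and -0.90 in TPM), with 7.89, 8.24 and 6.32 FPKM in the YAP5SA libraries, all above those of TEAD1-NCOA2. Its difference between the fusions (0.30, adjusted p = 0.0441) was lost without any 1 of the 6 libraries. MRPS18C, the small subunit counterpart of bacterial S18, was 2.98, 3.41 and 2.91 FPKM in control, 2.72, 2.10 and 2.12 FPKM in the VGLL2-NCOA2 group, 1.42, 1.67 and 1.33 FPKM in the TEAD1-NCOA2 group and 1.34, 1.52 and 1.32 FPKM in the YAP5SA group. Its exons share 40.2% of their bases with ABRAXAS1 on the opposite strand. VGLL2-NCOA2 stood between control and the other groups, above TEAD1-NCOA2 by 0.42 (adjusted p = 0.0156) and above YAP5SA by 0.47 (adjusted p = 0.00548). The first of these calls was lost without VGLL2-NCOA2 replicate 1 or TEAD1-NCOA2 replicate 3 (adjusted p up to 0.0667), after quantile normalization and after the correction for length and GC content.

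Subunits with other symbols and the genes that work with the mitochondrial ribosome held both genes that fell and genes that rose. Of 5 such subunits, DAP3, a GTP-binding protein of the small subunit, fell from 53.9 ± 4.17 FPKM to 33.8, 32.5 and 31.3 FPKM in the means of VGLL2-NCOA2, TEAD1-NCOA2 and YAP5SA (-0.66, -0.71 and -0.80). PTCD3, also of the small subunit, rose from 9.12 ± 1.05 FPKM to 13.4, 10.8 and 10.7 FPKM (0.51, 0.23 and 0.21). GADD45GIP1, of the large subunit, was 75.3 ± 11.7 FPKM in control and 23.2, 30.7 and 26.9 FPKM in these groups (-1.65, -1.26 and -1.94), of which the TEAD1-NCOA2 difference did not pass (adjusted p = 0.119) and the YAP5SA difference was -0.94 without replicate 3.

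Among 15 translation factors, 8 fell in each comparison with control and 6, 4 and 3 rose with VGLL2-NCOA2, TEAD1-NCOA2 and YAP5SA. Of all genes tested, 25%, 27.9% and 30.2% fell and 28.9%, 20.6% and 32.9% rose in these comparisons. TUFM, the elongation factor that brings tRNA to the ribosome, fell from 254 ± 34.6 FPKM to 139, 143 and 84.1 FPKM (-0.86, -0.82 and -1.60). OXA1L, which inserts new chains into the inner membrane, fell from 57.7 ± 3.39 to 32.9, 41.5 and 24.0 FPKM, and TACO1, an activator of the translation of a cytochrome oxidase subunit, from 33.8 ± 3.64 to 14.9, 17.1 and 22.5 FPKM. MTRF1L, a release factor, rose from 2.76 ± 0.753 to 5.24, 4.09 and 5.50 FPKM. Of 26 assembly and rRNA modification genes, 13, 9 and 13 fell and 0, 2 and 1 rose. NOA1, a GTPase of ribosome assembly, fell from 34.6 ± 1.75 to 20.8, 23.1 and 11.1 FPKM. Of 22 genes of tRNA charging, 10, 7 and 12 fell and 2, 1 and 1 rose. With TEAD1-NCOA2 the assembly and charging genes that fell were little above the share of all genes. GARS, which charges glycine tRNA in both the cytosol and mitochondria, was 128 ± 15.8 FPKM in control and 75.8, 104 and 36.2 FPKM, and its TEAD1-NCOA2 difference did not pass (-0.30, adjusted p = 0.0816). In TPM the medians of these last lists were above control in every comparison (0.24, 0.12 and 0.48 for translation factors, 0.25, 0.22 and 0.38 for assembly, 0.38, 0.40 and 0.43 for charging).

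Genes upstream of the ribosome went both ways. POLRMT, the mitochondrial RNA polymerase, fell from 49.6 ± 9.65 FPKM to 23.2, 26.6 and 31.8 FPKM (-1.05, -0.87 and -0.61), and TFAM, which packages mitochondrial DNA and starts its transcription, rose from 14.3 ± 0.508 to 19.1, 18.4 and 19.0 FPKM (0.39, 0.34 and 0.38). Of 8 nuclear regulators tested, ESRRA, a nuclear receptor that drives genes of oxidative metabolism, fell from 29.9 ± 2.82 to 13.2, 15 and 12 FPKM (-1.12, -0.95 and -1.25). MYC, a driver of ribosome production, fell from 119 ± 15.7 to 67.4, 65.1 and 81.6 FPKM (-0.80, -0.85 and -0.56, the last -0.33 without replicate 3). PPARGC1B, a coactivator of ESRRA, rose from 1.21 ± 0.210 to 2.66, 2.52 and 4.17 FPKM. GABPA, the factor of the ETS word, rose with VGLL2-NCOA2 (0.68, adjusted p = 0.000169) and TEAD1-NCOA2 (0.35, adjusted p = 0.00944).

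The gene groups most like the members were read beside them. Of all genes tested, 25%, 27.9% and 30.2% fell with VGLL2-NCOA2, TEAD1-NCOA2 and YAP5SA. Of 85 cytosolic ribosomal protein genes, 31, 8 and 56 fell with VGLL2-NCOA2, TEAD1-NCOA2 and YAP5SA, with median differences of -0.86, -0.55 and -1.16 in FPKM and -0.26, -0.04 and -0.36 in TPM. All libraries lay below control in 73, 59 and 59 of these genes (30.7%, 34.8% and 30.5% of all genes), and the YAP5SA median was -0.56 without replicate 3. Of 82 nuclear respiratory chain genes, 19, 15 and 35 fell, with medians of -0.45, -0.50 and -0.82 in FPKM and 0.15, 0.00 and -0.07 in TPM, so their direction with VGLL2-NCOA2 flips, and the YAP5SA median was -0.31 in FPKM without replicate 3. Of the 13 proteins encoded by the mitochondrial chromosome, the products of these ribosomes, 5, 5 and 12 fell, with medians of -0.89, -0.85 and -1.61 in FPKM and -0.27, -0.33 and -0.80 in TPM, while after quantile normalization they were above control by 0.20 and 0.08 with the fusions. Genes that fell were rarer than among all genes for cytosolic ribosomal proteins with TEAD1-NCOA2 and for the respiratory chain with both fusions. In the other comparisons of these lists they were more frequent. The difference between the members and these lists was not tested.

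Gene structure moved with the differences. The members are shorter than the genes tested, with a median of 2539 bases (959 to 16393) against 4026.5, and had a median GC content of 50.5% against 49.6%. Across the 77 members, the difference from control had a Spearman's rho with GC content of -0.46, -0.36 and -0.44 and with length of 0.29, 0.27 and 0.26 for VGLL2-NCOA2, TEAD1-NCOA2 and YAP5SA. Across 15944 genes these were -0.38, -0.41 and -0.27 and 0.18, 0.21 and 0.14. The points share their libraries and genes are not independent replicates. Corrected for both properties, 35, 24 and 44 members were lower, against 23.7%, 19.8% and 30% of all genes. The exons of 14 members share more than 20% of their bases with another gene, among them MRPL12 (68.2%), MRPS18A (47.0%, with RSPH9) and MRPS24 (23.2%, with the read-through gene URGCP-MRPS24), and whether counting used strand is not given in the sources used here. For pseudogenes, 75 are annotated with 34 parents among the members, and 2 of these reached 1 FPKM in 3 libraries, with MRPL45P2 the highest at 2.58 FPKM.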

How the data were processed

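The deposited tables hold FPKM values per gene that the authors computed, 1 column for each library. The aligner, the counting program and the handling of strand were each not given in the sources used here. As genome builds, the processing notes of the submitters list GRCm38 and mm10, which are of the mouse, but start and end of all 58735 genes match GENCODE 29 on human GRCh38. The values were tested with limma 3.58.1 (R 4.3.3) on log2(FPKM + 1), with a trend in the prior spread, over the 15954 genes that reached 1 FPKM in 3 or more of the 12 libraries, in 1 fit of all libraries without a block. Fold changes on this scale understate the change of low genes. P-values were adjusted by the Benjamini-Hochberg method over all genes tested, and a gene passed at adjusted p under 0.05. Each replicate was processed separately per the methods, but separate transfections are not stated, so the spread behind the p-values may be a technical one between these libraries.

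FPKM times length gave whole fragments (within 0.05, for values under 20 fragments) for 100% of values in all libraries but those of YAP5SA, and limma-voom was run on these fragments as an alternative. Replicates with recovered fragments differed beyond counting error, with a chi-square per degree of freedom of 2.96 to 51.5. Replicate numbers did not pair the libraries. Alternatives were the pseudocount, the filter, the TPM scale, quantile normalization, a spline correction for length and GC content, a replicate block, fits of the compared groups alone and leaving out libraries. The pair of libraries left out together, and protein-coding genes alone, were chosen after seeing the data.

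The members, gene lists and tests were chosen with earlier results of these data known. The text names the 5 members highest in control, the 6 passing members with the lowest and the 6 with the highest difference in each comparison with control, the 3 lowest and 3 highest between transfected genes, members below the filter, and MRPS36, MRPL58, MRPL12, MRPS30 and MRPS18A for their roles. Of a related list it names up to 3 passing genes in a comparison. One marker of the leukocyte list is not reported here.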

Additional observations from a re-analysis of the deposited data

How the results depend on the processing

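The counts of members that passed depended on the scale and, between transfected genes, on the groups and libraries fitted. On the TPM scale 7, 5 and 8 members were lower and 11, 11 and 21 higher with VGLL2-NCOA2, TEAD1-NCOA2 and YAP5SA against control, 10 were lower with VGLL2-NCOA2 than with YAP5SA (2912 of all 15954 genes), and 11 lower and 6 higher with TEAD1-NCOA2 than with YAP5SA (6119 and 930 of all genes). Named differences from control that changed sign there were those of MRPS26 (0.043), MRPS18C (0.16), MRPS30 (0.16) and MRPL30 (0.070) with VGLL2-NCOA2 and of MRPL22 (0.30), MRPS15 (0.35), MRPS36 (0.023) and MRPL58 (0.28) with YAP5SA. After quantile normalization MRPS26 changed sign with VGLL2-NCOA2 (0.059) and YAP5SA (0.028) and MRPL58 with YAP5SA (0.068). Quantile normalization left 17 lower and 3 higher with TEAD1-NCOA2 (2946 and 3685 of all 15954 genes) and 28 lower with YAP5SA (4344 of all genes) against control, 1 higher with VGLL2-NCOA2 than with TEAD1-NCOA2 (1156 of all genes), and 9 lower with VGLL2-NCOA2 than with YAP5SA (2744 of all genes). The length and GC correction gave 4 higher with VGLL2-NCOA2 against control (3740 of all 15944 genes), and 14 and 8 lower with VGLL2-NCOA2 than with TEAD1-NCOA2 and YAP5SA (1647 and 2724 of all genes). With the replicate block added to it these were 4, 14 and 9 (3674, 1564 and 2667 of all genes), and 2 were higher with TEAD1-NCOA2 against control (3342 of all genes).

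With limma-voom 40 and 34 members were lower with VGLL2-NCOA2 and TEAD1-NCOA2 against control (51.9% and 44.2%, against 2855 and 3258 of all 15954 genes). In these fits 6 and 4 members were higher (6665 and 5168 of all genes). Between the fusions 13 were lower and 8 higher with VGLL2-NCOA2 (1130 and 3342 of all genes). This method was not run for YAP5SA, whose values are not whole fragments. Of the recovered fragments the members took 0.497% to 0.544% in control, 0.399% to 0.404% with VGLL2-NCOA2 and 0.417% to 0.423% with TEAD1-NCOA2. Fits of the compared groups alone gave 0 higher with TEAD1-NCOA2 and with YAP5SA against control (3053 and 4470 of all genes), 20 lower and 15 higher between the fusions (1849 and 4270 of all genes), and 4 and 7 higher with VGLL2-NCOA2 and TEAD1-NCOA2 than with YAP5SA (2294 and 1881 of all genes). A filter of 5 FPKM in 3 libraries gave 1, 0 and 1 higher with VGLL2-NCOA2, TEAD1-NCOA2 and YAP5SA against control (2506, 2116 and 2552 of 8946 genes) and 1 lower with TEAD1-NCOA2 than with YAP5SA (1913 of these genes). No filter gave 0 higher with TEAD1-NCOA2 against control and 4 lower between the fusions (3113 and 537 of 38153 genes). Without control replicate 3 and YAP5SA replicate 3, chosen after seeing the data, 59 were lower and 0 higher with TEAD1-NCOA2 against control, 16 lower and 14 higher between the fusions, and 23 and 21 lower with VGLL2-NCOA2 and TEAD1-NCOA2 than with YAP5SA. The cause of these shifts was not tested.

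Leaving out 1 library at a time gave 34 to 43, 25 to 31 and 41 to 60 lower and 2, 0 to 1 and 1 to 3 higher with VGLL2-NCOA2, TEAD1-NCOA2 and YAP5SA against control. Between the fusions it gave 2 to 4 lower and 1 to 2 higher (335 to 541 and 1409 to 1825 of all genes). Against YAP5SA it gave 2 to 15 lower and 5 to 11 higher with VGLL2-NCOA2 (1795 to 2546 and 1899 to 2375 of all genes), and 2 to 12 lower and 7 to 16 higher with TEAD1-NCOA2 (3182 to 4196 and 1623 to 2192 of all genes), the 15 and the 12 both without YAP5SA replicate 3. Against control, 3291 to 4094, 3507 to 4514 and 4265 to 4906 of all genes were lower in these fits and 4035 to 4594, 2734 to 3279 and 4827 to 5357 higher. Same-numbered libraries deviated together weakly (r from -0.0488 to 0.270 over 18 pairs, 3 above 0.1), and the replicate block gave 45 lower and 2 higher, 35 and 1, and 56 and 3 against control, and 5 and 2, 4 and 10, and 2 and 12 between transfected genes. Over all genes the block gave 4008 and 4536, 4454 and 3260, and 4853 and 5234 against control. Between transfected genes it gave 712 and 2319, 2370 and 2590, and 4127 and 2224 of all genes. Relative to the median gene the members were lower than control under every alternative, from -0.64 to -0.32 with VGLL2-NCOA2, -0.50 to -0.23 with TEAD1-NCOA2 and -0.88 to -0.38 with YAP5SA. Among these alternatives, the TPM scale could move this gap only through the pseudocount. The replicate block and the fits of the compared groups alone could not move it, because they leave the differences between group means unchanged. In both it was -0.58, -0.42 and -0.76 with VGLL2-NCOA2, TEAD1-NCOA2 and YAP5SA, as in the main fit. The agreement of these fits is built in and not separate support.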
